A study of Mus musculus with 6 samples.

Results

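The genes that brake or drive entry into S phase were measured in A375 xenograft tumours after treatment with ZLD1039, an inhibitor of the histone methyltransferase EZH2. A list of 10 genes was fixed by gene identifier: the inhibitors CDKN1A, CDKN1B, CDKN1C, CDKN2A, CDKN2B and CDKN2C, the kinases CDK4 and CDK6, their partner CCND1, and RB1. Of these, 9 were listed in the deposited tables, among 14202 Ensembl identifiers in all. A375 is an established human melanoma cell line. It was grown under the skin of BALB/c nude mice, which lack mature T cells but keep other host cells. The ZLD1039 group was 3 tumours from mice given 100 mg/kg by mouth once daily, and the vehicle group was 3 tumours from mice given the carrier alone, all taken on day 27. No member gene was checked here for mutations. The labels give the cells of both groups the genotype WT. They describe 5 mice per group and do not state that each sequenced tumour came from a separate mouse, so p-values reflect only how these tumours varied.

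D-type cyclins such as cyclin D1, the product of CCND1, bind and activate CDK4 and CDK6, which phosphorylate RB and so release the E2F transcription factors that turn on genes for DNA replication. INK4 proteins, from CDKN2A, CDKN2B and CDKN2C, bind CDK4 and CDK6 directly. CIP/KIP proteins, from CDKN1A, CDKN1B and CDKN1C, chiefly inhibit complexes that contain CDK2. EZH2 places the repressive mark H3K27me3, and CDKN2A and CDKN1C are known in several cell types as genes it can silence, while CDKN2A is often lost or mutated in melanoma.

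For each tumour the tables list transcript events (start sites, end sites, skipped exons, retained introns) with an FPKM value, which is fragments scaled by transcript length and by library total. Each tumour had 118402 to 126622 listed events in the ZLD1039 group and 123707 to 127722 in the vehicle group. The abundance of a gene's locus was taken as the largest of its summed starts, its summed ends and its largest event, and an unlisted event as 0. Positions given for a locus are the outermost edges of its listed events, skipped exons included. Overlaps between loci were judged on these positions. Depth is unknown. ZLD1039 tumour 2 stood apart: its mean correlation with the other tumours over loci was 0.919, against 0.934 to 0.943 for the other 5. Of 7 identifiers of melanocyte lineage genes, 3 were listed in no tumour (ENSG00000120215, ENSG00000077498 and ENSG00000080166). The sum over the list was 24.3 to 56.2 FPKM in ZLD1039 tumours and 53.9 to 81.2 FPKM in vehicle tumours. Most of it came from 1 gene, ENSG00000100146. Its main locus had 50.2, 21.8 and 21.3 FPKM in ZLD1039 tumours, against 48.8, 56.0 and 70.0 FPKM in vehicle tumours. Of the markers of other cells, 0 of 2 for endothelium were listed and 2 of 2 for fibroblasts, with sums of 3.21 to 6.05 FPKM in ZLD1039 tumours and 3.54 to 7.33 FPKM in vehicle tumours. For leukocytes 1 of 2 was listed, inside a crowded 31.4-kb locus, and the 1 marker of epithelium was listed only in vehicle tumour 3, at 0.545 FPKM. The part of these differences in the results was not tested. In bulk tumours, fewer cells of a type and less RNA per cell cannot be told apart.

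No member passed the test for a difference in abundance between ZLD1039 and vehicle tumours. Of 8 members abundant enough to test, 0 passed limma's test at an adjusted p under 0.05 and 0 had an unadjusted p under 0.05. Among all 10834 loci tested, 0.0185% passed the adjusted threshold and 4.94% had an unadjusted p under 0.05. The log2 difference, ZLD1039 over vehicle, was above 0 for 3 members and below 0 for 5, with a median of -0.071, against a median of 0.019 and 52.8% above 0 over all loci. For none of the 8 did all ZLD1039 tumours lie to 1 side of all vehicle tumours. That held for 5.75% of all loci with ZLD1039 higher and 5.2% with ZLD1039 lower. These log2 differences are on the log2(FPKM + 1) scale, which understates changes of low values.

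**Figure D1:**
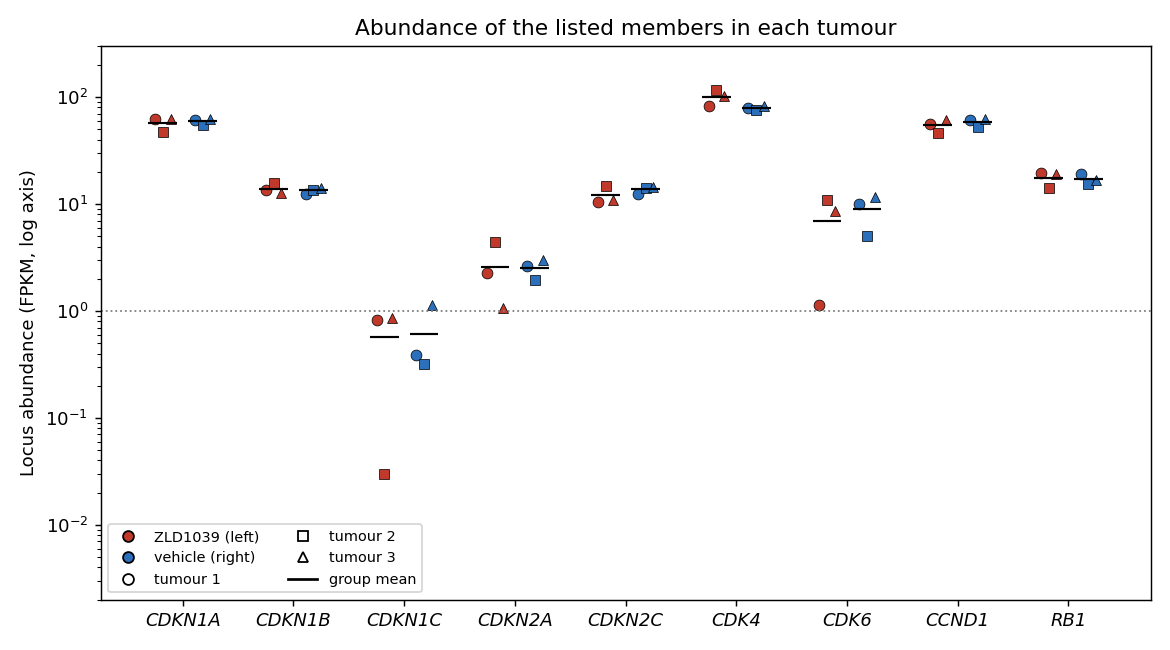
Abundance of the 9 listed members in each tumour (FPKM, log axis), with ZLD1039 tumours at the left and vehicle tumours at the right of each gene. Points are single tumours, bars are group means, and the dotted line marks 1 FPKM. The groups overlap for every gene shown, and CDK6 and CDKN1C each have 1 ZLD1039 tumour far below the others.

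CDKN1A encodes p21, an inhibitor best known as a target of p53, and was the most abundant inhibitor. Its locus (ENSG00000124762, chromosome 6, 36646435 to 36650507, plus strand) had 61.7, 46.7 and 62.9 FPKM in ZLD1039 tumours 1 to 3, against 60.7, 54.4 and 62.1 FPKM in vehicle tumours 1 to 3. Tumour 2 was the lowest in each group, and the other 4 tumours lay close together. The means were 57.1 ± 9.02 FPKM in ZLD1039 tumours and 59.1 ± 4.14 FPKM in vehicle tumours (SD, n = 3 each). The log2 difference was -0.058 (SE 0.17, 95% interval -0.46 to 0.35; limma adjusted p = 0.959), and the interval spans 0.725 to 1.27 as a ratio of FPKM + 1. Without ZLD1039 tumour 2 it was 0.078.

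CDKN1B encodes p27, an inhibitor regulated largely at the level of the protein. Its locus (ENSG00000111276, chromosome 12, 12870058 to 12871888, plus strand) had 13.4, 15.6 and 12.7 FPKM in ZLD1039 tumours, against 12.4, 13.6 and 14.1 FPKM in vehicle tumours. The groups interleaved, and ZLD1039 tumour 2 was the highest. The log2 difference was 0.050 (SE 0.16, 95% interval -0.31 to 0.41; limma adjusted p = 0.96), and -0.031 without ZLD1039 tumour 2. CDKN1B was the steadiest member: only 4.02% of tested loci had a smaller SD of log2(FPKM + 1) over the 6 tumours.

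CDKN1C encodes p57, an inhibitor whose gene is imprinted. Its locus (ENSG00000129757, chromosome 11, 2904448 to 2907111, minus strand) had 0.829, 0.0299 and 0.856 FPKM in ZLD1039 tumours, against 0.383, 0.321 and 1.12 FPKM in vehicle tumours. The means, 0.572 ± 0.469 FPKM in ZLD1039 tumours and 0.610 ± 0.447 FPKM in vehicle tumours (SD, n = 3 each), were below the 1 FPKM minimum, so the gene was not tested. The spread inside either group exceeded the gap between their means.

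CDKN2A encodes p16INK4A and, from a separate upstream first exon, the unrelated protein ARF. Its locus (ENSG00000147889, chromosome 9, 21968574 to 21975097, minus strand) had 2.26, 4.38 and 1.07 FPKM in ZLD1039 tumours, against 2.65, 1.96 and 3.02 FPKM in vehicle tumours. Both the highest and the lowest value were in ZLD1039 tumours. The means were 2.57 ± 1.68 FPKM in ZLD1039 tumours and 2.54 ± 0.539 FPKM in vehicle tumours (SD, n = 3 each), with a log2 difference of -0.085 (SE 0.35, 95% interval -0.90 to 0.73; limma adjusted p = 0.969). It was 0.25 without ZLD1039 tumour 3 and 0.012 without vehicle tumour 3. As a ratio of FPKM + 1 the interval spans 0.535 to 1.66, and with a pseudocount of 0.1 in place of 1 it was -1.32 to 0.99 on the log2 scale.

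The CDKN2A locus lies wholly inside a listed locus on the opposite strand, given the identifier ENSG00000240498. The opposite-strand locus runs over 316 kb of chromosome 9 (21802542 to 22118766), holds 23 events and covers all 6524 bases. Whether it joins several genes was not tested, so its values need not be those of a single gene. That locus had 68.3, 44.3 and 67.1 FPKM in ZLD1039 tumours, against 72.4, 58.3 and 64.5 FPKM in vehicle tumours. The sources used here do not say whether strand was used in assigning reads, so reads of the 2 loci may not have been kept apart and the CDKN2A values are uncertain. CDKN2B (ENSG00000147883), which encodes p15, was listed in no tumour. An unlisted locus need not be silent, since 25 loci whose median exceeded 10 FPKM in the tumours that listed them were left out of 1 or more lists.

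CDKN2C encodes p18, an INK4 inhibitor with no overlapping locus in the tables. Its locus (ENSG00000123080, chromosome 1, 51434367 to 51440305, plus strand) had 10.5, 14.6 and 10.97 FPKM in ZLD1039 tumours, against 12.4, 14.2 and 14.3 FPKM in vehicle tumours. ZLD1039 tumours 1 and 3 lay below all vehicle tumours and ZLD1039 tumour 2 above them. The means were 12.01 ± 2.24 FPKM in ZLD1039 tumours and 13.7 ± 1.08 FPKM in vehicle tumours (SD, n = 3 each), and the log2 difference was -0.18 (SE 0.18, 95% interval -0.59 to 0.23; limma adjusted p = 0.887).

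CDK4, a kinase that phosphorylates RB when bound to cyclin D1, was the most abundant member and had the lowest p among them. Its locus (ENSG00000135446, chromosome 12, 58141510 to 58149796, minus strand) had 82.1, 117 and 102 FPKM in ZLD1039 tumours, against 79.5, 75.9 and 82.1 FPKM in vehicle tumours. The groups met at a single point: ZLD1039 tumour 1 had 82.11 FPKM and vehicle tumour 3 had 82.12 FPKM. The means were 100.2 ± 17.3 FPKM in ZLD1039 tumours and 79.2 ± 3.10 FPKM in vehicle tumours (SD, n = 3 each). The log2 difference was 0.32 (SE 0.18, 95% interval -0.09 to 0.73; limma adjusted p = 0.881). Without ZLD1039 tumour 2 it was 0.21.

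For CDK4 the choice of quantity mattered. In vehicle tumour 3 the end event had 82.1 FPKM, while the start events summed to only 60.8 FPKM. In ZLD1039 tumours 1 and 3 and vehicle tumour 1 the end event was instead well below the summed starts. Summed starts alone were 82.1, 117 and 102 FPKM in ZLD1039 tumours, against 79.5, 75.9 and 60.8 FPKM in vehicle tumours, with no overlap. On that quantity the log2 difference was 0.46 (SE 0.19, 95% interval 0.02 to 0.91), still with a limma adjusted p of 0.900. The end event alone had 54.8, 116 and 77.2 FPKM in ZLD1039 tumours, against 62.6, 73.2 and 82.1 FPKM in vehicle tumours. These overlapped, with a log2 difference of 0.13 (SE 0.29; limma adjusted p = 0.939). Loci on the opposite strand overlap CDK4 by 506 and 916 bases (ENSG00000135452 and ENSG00000139266), with 9.01 to 15.5 FPKM over all tumours.

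CDK6, the second kinase for D-type cyclins, varied most of the tested members. Its main locus (ENSG00000105810, chromosome 7, 92255695 to 92465908, minus strand) spans 210 kb and was listed through start events only. The same identifier was also given to a locus on the opposite strand (92400073 to 92441589), listed only in vehicle tumour 2, at 0.595 FPKM and not used below. The main locus had 1.143, 10.99 and 8.57 FPKM in ZLD1039 tumours, against 10.0, 5.05 and 11.7 FPKM in vehicle tumours. ZLD1039 tumour 1 was low and the rest overlapped. The means were 6.90 ± 5.13 FPKM in ZLD1039 tumours and 8.95 ± 3.48 FPKM in vehicle tumours (SD, n = 3 each), with a log2 difference of -0.60 (SE 0.62, 95% interval -2.04 to 0.84; limma adjusted p = 0.889). Without ZLD1039 tumour 1 it was 0.18. The SD of log2(FPKM + 1) over the 6 tumours was larger for CDK6 than for 97.8% of tested loci.

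CCND1 was close to CDKN1A in level. Its locus (ENSG00000110092, chromosome 11, 69455855 to 69458956, plus strand) had 55.3, 46.5 and 61.5 FPKM in ZLD1039 tumours, against 60.3, 52.7 and 61.7 FPKM in vehicle tumours. Tumour 2 was the lowest in each group, and the groups overlapped. The log2 difference was -0.10 (SE 0.17, 95% interval -0.49 to 0.29; limma adjusted p = 0.924), and 0.0063 without ZLD1039 tumour 2.

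RB1 encodes the substrate of these kinases and the brake on E2F. Its locus (ENSG00000139687, chromosome 13, 48877911 to 49056122, plus strand) had 19.3, 14.1 and 19.1 FPKM in ZLD1039 tumours, against 19.2, 15.3 and 16.9 FPKM in vehicle tumours. The means were 17.5 ± 2.95 FPKM in ZLD1039 tumours and 17.1 ± 1.96 FPKM in vehicle tumours (SD, n = 3 each), and the vehicle values lay inside the range of the ZLD1039 values. The log2 difference was 0.025 (SE 0.18, 95% interval -0.40 to 0.45; limma adjusted p = 0.983). It was between -0.048 and 0.16 when single tumours were left out, below 0 without ZLD1039 tumour 1, ZLD1039 tumour 3 or vehicle tumour 2.

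**Figure D2:**
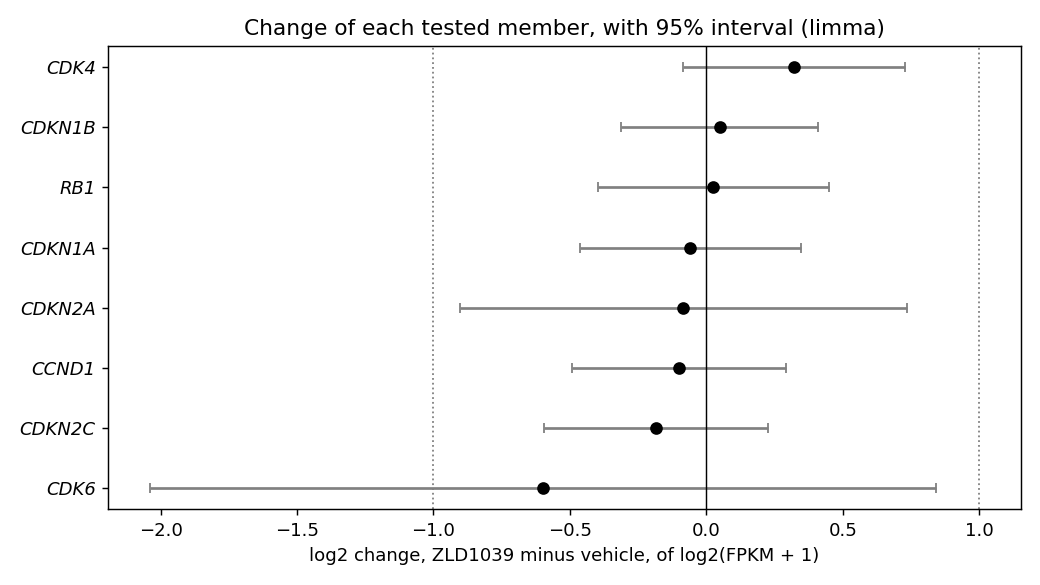
Log2 difference of each tested member, ZLD1039 over vehicle, on the log2(FPKM + 1) scale. Points are limma estimates, bars 95% intervals, and dotted lines mark 1 log2 unit to either side of 0. All 8 intervals cross 0, and the widest is that of CDK6.

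Across the 6 tumours the order of median abundance was CDK4 at 82.1 FPKM, CDKN1A at 61.2, CCND1 at 57.8, RB1 at 18.0, CDKN1B at 13.5, CDKN2C at 13.3, CDK6 at 9.31, CDKN2A at 2.46 and CDKN1C at 0.606 FPKM. Ranges of neighbours were separate only between CDK4 and CDKN1A and between CCND1 and RB1, and every other neighbouring pair overlapped. CDKN1A was nonetheless above CCND1 in 6 of 6 tumours, with a ratio of CCND1 to CDKN1A of 0.897 to 0.996. The ratio of CDK4 to CDK6 was 71.8, 10.6 and 11.9 in ZLD1039 tumours, against 7.92, 15.0 and 6.996 in vehicle tumours. The high value is that of the tumour with little CDK6.

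Start sites were compared next, as the share of a locus's summed start FPKM that came from each first exon. The loci described above held 2 or 3 first exons for 8 members and 1 for CDKN1B; the small opposite-strand locus with the CDK6 identifier had 1 more. Of 14 shares tested, 0 passed limma's test at an adjusted p under 0.05 and 0 had an unadjusted p under 0.05. Shares of the same gene are not separate results: with 2 first exons they mirror each other. The trend of variance on mean can still give them unlike SEs. For CDKN2C the unadjusted p in limma was 0.073 for the upstream exon and 0.118 for the downstream exon. Over all 21321 start sites tested, 0% passed the adjusted threshold and 2.49% had an unadjusted p under 0.05.

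CDKN2C had 2 first exons whose use varied widely between tumours. The upstream exon (51434367 to 51435571, 1205 bases) took 87.3%, 93.6% and 85.8% of starts in ZLD1039 tumours, against 35.4%, 55.0% and 88.2% in vehicle tumours. Vehicle tumour 3 lay among the ZLD1039 tumours, while the other 2 vehicle tumours were far below. The means were 88.9% ± 4.14 in ZLD1039 tumours and 59.5% ± 26.7 in vehicle tumours (SD, n = 3 each), a difference of 29.4 percentage points (SE 13.5, 95% interval -3.78 to 62.5; limma adjusted p = 0.764). It was 17.3 points without vehicle tumour 1 and 43.7 points without vehicle tumour 3, with adjusted p of 0.811 and 0.822 in limma.

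The downstream CDKN2C exon (51435616 to 51436169, 554 bases) begins just inside the intron that follows the upstream exon, with 44 bases between them. This downstream exon runs past the intron's far edge at 51436030, so it covers most of that intron. In abundance it had 1.33, 0.936 and 1.56 FPKM in ZLD1039 tumours, against 8.02, 6.41 and 1.70 FPKM in vehicle tumours. All ZLD1039 tumours were below all vehicle tumours, vehicle tumour 3 only narrowly. The log2 difference of this event was -1.32 (SE 0.49, 95% interval -2.49 to -0.16), with an unadjusted p of 0.032 and a limma adjusted p of 0.859. The upstream exon had 9.14, 13.6 and 9.41 FPKM in ZLD1039 tumours, against 4.40, 7.84 and 12.6 FPKM in vehicle tumours, and these overlapped.

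CDKN1A had 2 first exons whose starts lie 52 bases apart. The leading one (36646435 to 36646575, 141 bases) took 89.6%, 84.7% and 90.8% of starts in ZLD1039 tumours, against 85.8%, 82.4% and 87.3% in vehicle tumours. The groups overlapped, and the difference was 3.19 percentage points (SE 3.39, 95% interval -5.11 to 11.5; limma adjusted p = 0.787). The minor exon (36646487 to 36646716, 230 bases) had 6.40, 7.17 and 5.80 FPKM in ZLD1039 tumours, against 8.63, 9.57 and 7.89 FPKM in vehicle tumours. Here all ZLD1039 tumours were lower, with a log2 difference of -0.38 (SE 0.19; limma adjusted p = 0.859). The 2 exons overlap by 89 bases.

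All listed CDKN2A first exons lie between 21974403 and 21975097, with none upstream of the outer edge at 21975097. The 421-base exon that starts at this edge took 100%, 100% and 1.499% of starts in ZLD1039 tumours, against 96.0%, 93.5% and 100% in vehicle tumours. In ZLD1039 tumour 3 a 249-base exon with the same outer edge took the other 98.5%, so the tumours differed in where the exon ends rather than where it starts. The share of the 421-base exon differed by -29.4 percentage points (SE 27.1; limma adjusted p = 0.764), and by 3.48 without that tumour. Another exon (21974403 to 21974826, 424 bases) was listed only in vehicle tumours 1 and 2, at 0.106 and 0.126 FPKM.

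CDK4 started mainly at an exon of 347 bases (58145958 to 58146304). It took 92.2%, 99.9% and 74.4% of starts in ZLD1039 tumours, against 93.3%, 97.5% and 92.8% in vehicle tumours. In ZLD1039 tumour 3 a start within the gene (58145283 to 58145660, 378 bases) took 25.3%, or 25.8 FPKM. The share of the leading start differed by -5.67 percentage points (SE 6.67; limma adjusted p = 0.810), and by 1.53 without that tumour.

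**Figure D3:**
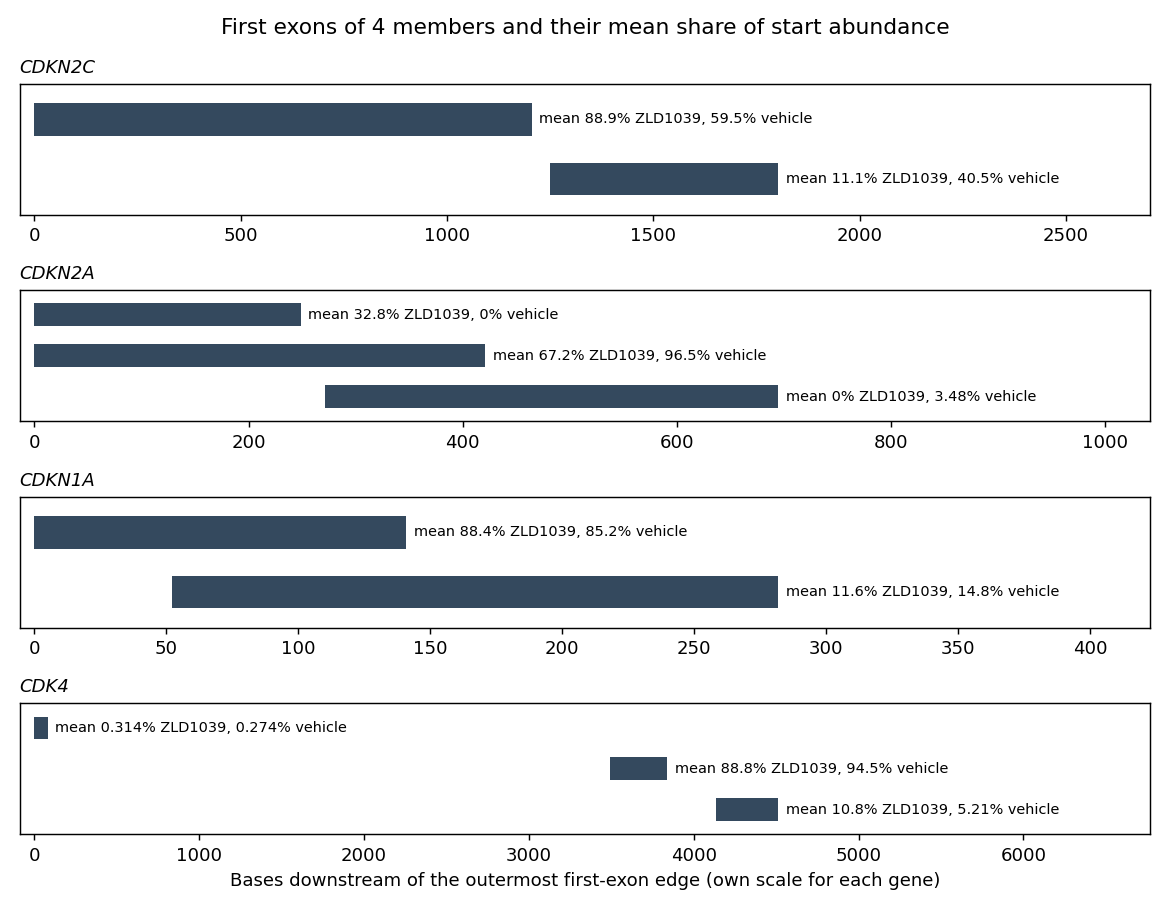
Map to scale of the listed first exons of CDKN2C, CDKN2A, CDKN1A and CDK4, as bases downstream of the outermost first-exon edge, each gene on its own scale; the text beside each box is the mean share of start FPKM in ZLD1039 and then vehicle tumours. The CDKN2C exons are apart by 44 bases, the CDKN1A exons overlap by 89 bases, and the 249-base and 421-base CDKN2A exons share their upstream edge.

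The main CDK6 locus had 3 first exons, and the one at the upstream end led in every tumour but vehicle tumour 1. That exon (92465792 to 92465908, 117 bases) took 100%, 60.3% and 85.1% of starts in ZLD1039 tumours, against 29.9%, 100% and 82.7% in vehicle tumours. A 45-base exon (92463187 to 92463231) held 39.7% in ZLD1039 tumour 2, and 53.3% and 17.3% in vehicle tumours 1 and 3. The share of the upstream exon differed by 10.9 percentage points (SE 20.1; limma adjusted p = 0.898), and by -9.55 without vehicle tumour 1.

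RB1 and CCND1 each had 1 dominant start. That of RB1 took 98.8%, 98.7% and 98.5% in ZLD1039 tumours, against 91.8%, 98.9% and 98.7% in vehicle tumours. Vehicle tumour 1 alone had more of a second RB1 start, 172672 bases downstream (49050583 to 49050979), at 1.56 FPKM, against 0.168 to 0.278 FPKM in the other 5. The RB1 share differed by 2.19 percentage points (SE 2.59; limma adjusted p = 0.812), and by -0.13 without vehicle tumour 1. The leading CCND1 start took 99.7% to 99.8% in every tumour.

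CDKN1C was too low for a test of its starts. A 1212-base first exon (2905900 to 2907111) took 26.8%, 17.8% and 41.6% of its starts in ZLD1039 tumours, against 1.92%, 13.2% and 1.71% in vehicle tumours. The groups do not overlap, but the exon's abundance was at most 0.36 FPKM in any tumour. Over all start sites tested, 4.09% had all ZLD1039 tumours above all vehicle tumours.

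**Figure D4:**
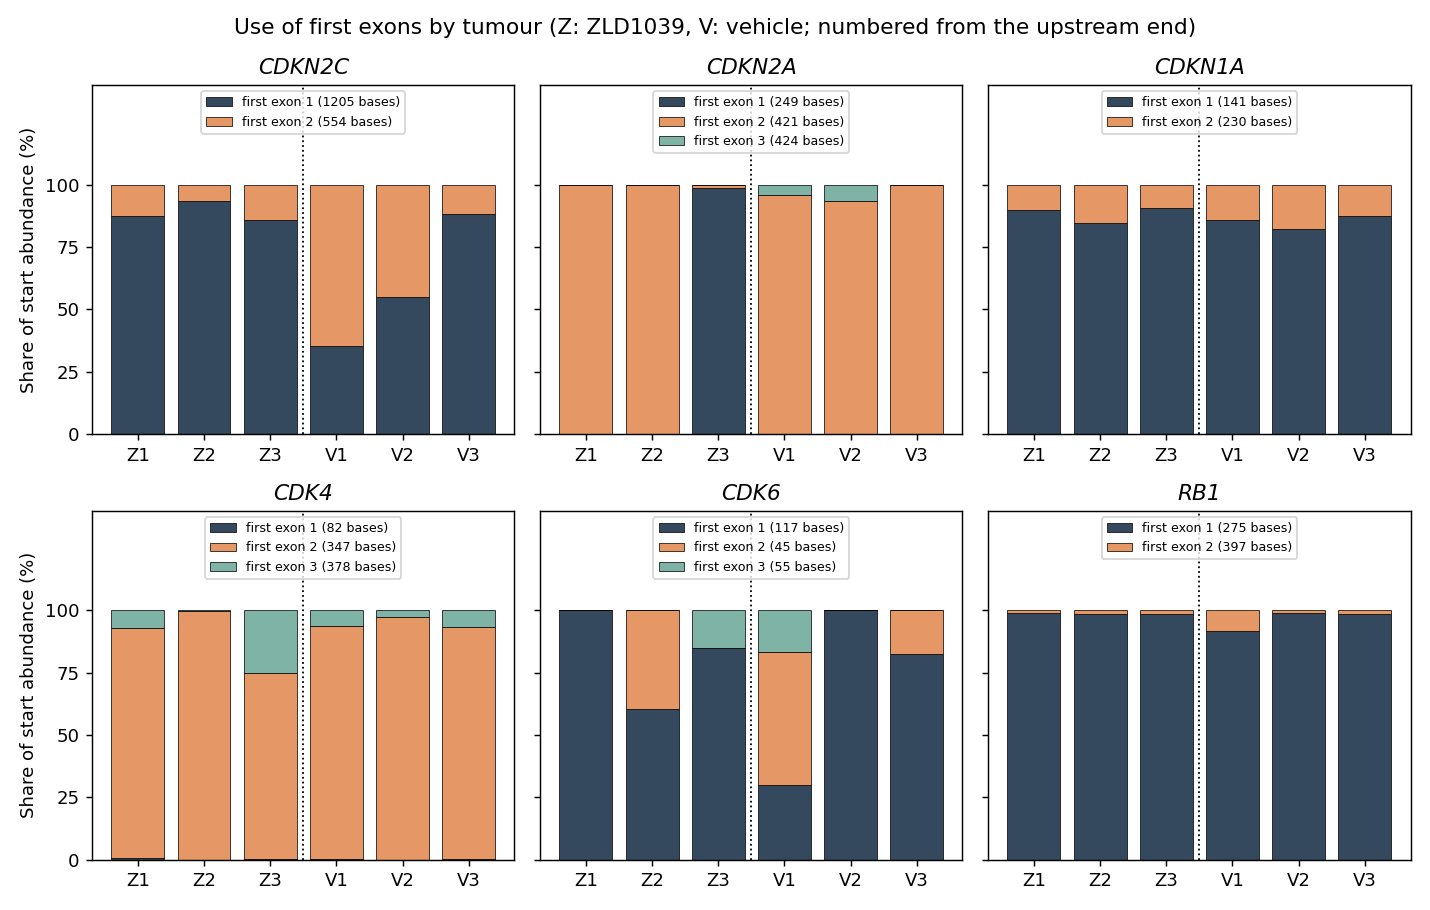
Share of summed start FPKM (percent) from each first exon in each tumour, as stacked bars for the 6 members whose shares were tested; Z marks ZLD1039 tumours and V vehicle tumours. Single tumours stand out: vehicle tumours 1 and 2 in CDKN2C, ZLD1039 tumour 3 in CDKN2A and CDK4, and vehicle tumour 1 in RB1.

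The members had 69 listed events in all, 47 of them in all 6 tumours, and 38 were tested singly. Of these, 0 passed limma's test at an adjusted p under 0.05 and 1, the downstream CDKN2C start, had an unadjusted p under 0.05. Among all 85258 events tested, 0.0364% and 4.72% did so. All ZLD1039 tumours were below all vehicle tumours in 3 of the 38, the CDKN2C start and a pair of CDKN1A events with the same values, against 4.95% of all events. They were above in 3 of the 38, all of CDK4, against 5.38% of all events. Of these 3, 2 describe the same exon (58144990 to 58145125) with nearly the same values. Vehicle tumour 3 was the lowest in all 3.

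Exon forms could be followed mainly in CDK4, with 30 of the 69 events. An exon with a fixed edge at 58145283 was listed with 3 alternative outer ends, and the shares below are of their sum. The first exon that shares this edge (58145283 to 58145660) is not counted in them. That first exon had 25.8 FPKM in ZLD1039 tumour 3, against 0.170 to 5.87 FPKM in the other tumours. The end at 58145519 took 68.8%, 100% and 100% in ZLD1039 tumours, against 79.6%, 98.9% and 87.6% in vehicle tumours. An end 16 bases further out, at 58145535, took 31.2% in ZLD1039 tumour 1 and 0% in the other ZLD1039 tumours, against 20.4%, 1.10% and 0.227% in vehicle tumours. An end at 58145442 was listed only in vehicle tumour 3, with 12.2%. The mix thus differed between tumours of the same group.

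The 159-base CDK4 intron next to that exon (58145125 to 58145283) was nearly always spliced. It was retained at 0.0786%, 0.00256% and 1.60% in ZLD1039 tumours, against 0.0519%, 0.00852% and 0.0467% in vehicle tumours. ZLD1039 tumour 3 was the high one. Of the members' exons and introns, 2 could be tested, both in CDK4, and 0 passed limma's test or had an unadjusted p under 0.05. They were the exon forms with outer ends at 58145442 and 58145535, not this intron. For the first, forms with and without the exon totalled 6.92 FPKM in vehicle tumour 3 and at most 0.0818 FPKM elsewhere. For the second, the total was 23.8 FPKM in ZLD1039 tumour 1, 15.2 FPKM in vehicle tumour 1 and at most 0.894 FPKM elsewhere. These tests thus say little about CDK4 splicing. Over all 13274 exons and introns tested, 0% passed the adjusted threshold and 2.09% had an unadjusted p under 0.05. In CDKN1A a 91-base exon (36650417 to 36650507), and in CDKN2A a 197-base exon (21968574 to 21968770), were listed only as skipped, in all 6 tumours.

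Other genes of the same step were taken as a list of 20 identifiers for further cyclins, CDK2 and the CDK-activating kinase, another INK4 gene, relatives of RB, E2F and DP factors and regulators of CDK activity. The files do not pair these identifiers with names, so values are given by identifier. Of the 20, 17 were listed and 16 tested. By limma 0 passed at an adjusted p under 0.05 and 1 had an unadjusted p under 0.05, and 14 had a log2 difference above 0, with a median of 0.21. Over all loci 0.0185% passed the adjusted threshold and 4.94% had an unadjusted p under 0.05. Of these loci 52.8% were above 0 and the median was 0.019. When single tumours were left out, 12 to 15 of the 16 were above 0, with medians of 0.14 to 0.29.

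ENSG00000198176 differed most, with 49.1, 65.3 and 54.1 FPKM in ZLD1039 tumours, against 41.1, 38.3 and 42.1 FPKM in vehicle tumours. All ZLD1039 tumours were higher, with a log2 difference of 0.45 (SE 0.17; limma adjusted p = 0.881). ENSG00000103479 had 15.4, 10.5 and 14.5 FPKM in ZLD1039 tumours, against 12.3, 9.47 and 7.86 FPKM in vehicle tumours, which overlapped. The other identifier with no overlap, named after its values were seen, was ENSG00000145604, with 13.6, 18.6 and 15.5 FPKM in ZLD1039 tumours, against 11.9, 10.8 and 12.95 FPKM in vehicle tumours. All ZLD1039 tumours were thus above all vehicle tumours in 2 of the 16, against 5.75% of all loci. The only 2 below 0 were ENSG00000112576, at -0.06, and ENSG00000134058, at -0.05 on the log2 scale.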

How the data were processed

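RNA from 6 tumours was analysed, 3 in each of 2 groups taken with the replicate numbers from the sample titles. The authors deposited 1 list of transcript events per tumour with FPKM values, per the file headers. Named in the submitters' processing notes are the build mm10, HTSeq 0.6.1 and bcl2fastq 2.17.1.14. The positions go against that build: they run over 22 numbered chromosomes and to 249214145 on chromosome 1, which are human in number and length. Positions are given as in the files, and no human sequence was used here. No aligner, assembler, event caller, strand setting or treatment of mouse host reads is given in the sources used here.

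Members and lists were chosen with earlier results of these data known. The symbols of the members came with the list of identifiers, and all members are named. Of the other 20 genes, the 2 with the largest log2 difference in each direction are named. The value of a locus can miss transcripts that its listed events do not cover, and it was not checked against a total for the locus. The test was limma 3.58.1 (R 4.3.3), fitted with a trend of variance on mean to log2 values after adding 1 FPKM, for loci and events that averaged 1 FPKM or more in either group. P-values were adjusted by Benjamini-Hochberg over all items tested. Shares in percent were tested likewise where the mean lay between 1% and 99%. The tests were checked on simulated data. Same-numbered tumours had correlations of their deviations of -0.032, 0.020 and -0.061, so the numbers were not taken as pairs. Depth is unknown, so no count test was run. Alternatives covered the pseudocount, filters, the quantity used, scaling, the variance trend, a replicate block and each tumour left out.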

Additional observations from a re-analysis of the deposited data

How the results depend on the processing

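No member's abundance, start share, exon form or event passed the threshold under any alternative run, 15 for abundance and 10 for each other measure, and the lowest adjusted p of a member locus in limma was 0.518, for CDK4 without ZLD1039 tumour 1. The count of all loci that passed, 2, was 1 with a pseudocount of 0.1, the largest event, median-of-ratios scaling, quantile normalization or no variance trend, and 0 with no filter or summed starts. With the replicate block it was 0 and the members past the threshold were 0. Leaving out single tumours gave 0 to 2 loci. CDK4 (0.21 to 0.46) and CDKN2C (-0.32 to -0.10) kept their direction. With single tumours left out, the log2 difference ranged from -0.19 to 0.0063 for CCND1, -1.07 to 0.18 for CDK6, -0.13 to 0.078 for CDKN1A, -0.031 to 0.11 for CDKN1B, -0.43 to 0.25 for CDKN2A and -0.048 to 0.16 for RB1. Likewise, the difference in the leading start's share ranged from -11.2 to 1.53 percentage points for CDK4 and -9.55 to 25.5 for CDK6. It was -45.8 to 3.48 for CDKN2A, -0.13 to 3.40 for RB1, 17.3 to 43.7 for CDKN2C and 1.81 to 5.04 for CDKN1A. As a log2 ratio to the other starts, the share of CDK4 differed by 0.41 and that of CDK6 by -0.013. The cause was not tested. The number of tumours, 3 per group, and the unknown depth limit which changes could be detected, and an interval that excludes 0 did not by itself pass the adjusted threshold.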
